A study of Homo sapiens with 17 samples.

Results

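A set of 41 genes that copy DNA and prepare cells for S phase was followed through oncogene-induced senescence and through knockdown of SMARCA4. Its members were given as a list of gene symbols and were matched by Ensembl identifier to the 62754 genes of the count tables; all 41 were found, and all 41 were among the 19473 genes tested. They comprise 5 origin licensing genes, the 6 subunits of the MCM2-7 helicase, 6 genes of helicase activation, 6 of DNA polymerases and primase, 7 of the sliding clamp, its loader and the joining of lagging strand fragments, 4 of nucleotide supply, 4 of E2F and cyclin E, and 3 that protect forks or belong to the CRL4 ubiquitin ligase. The cells were IMR90 ER:RAS, human lung fibroblasts in which a retroviral vector supplies RASG12V joined to the ligand-binding part of an oestrogen receptor, and addition of 4-hydroxytamoxifen (4OHT) activates the oncogene. Cells were transfected with a non-targeting siRNA (siNT) or with an siRNA against SMARCA4 (siSMARCA4), the ATPase of a SWI/SNF chromatin remodelling complex, on the day before induction, and RNA was taken 7 days after it. The labels put a number, 2 or 4, after the siRNA name in every group, and both numbers were pooled within each group. There were 5 DMSO siNT libraries from uninduced cells, 6 of 4OHT siNT from senescent cells and 6 of 4OHT siSMARCA4 from induced cells with the knockdown. All 17 came from the same engineered line, and no library combined DMSO with siSMARCA4, so that the knockdown was seen only in induced cells. The labels do not say whether libraries of a group came from separate cultures, and p-values then measure the spread between these libraries, which may be technical.

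DNA replication starts when the origin recognition complex, with CDC6 and CDT1, loads the ring-shaped MCM2-7 complex on chromatin in G1. The ring becomes an active helicase when CDC45 and the GINS complex join it, and polymerases, the PCNA clamp and ligase then copy both strands. Many of these genes are activated by E2F transcription factors once cyclin-dependent kinases have phosphorylated RB, and in senescent fibroblasts RB is held active and such genes are known to be shut down.

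E2F factors bind a short sequence near the start of their targets, and the words TTTCCCGC, TTTCGCGC, TTTGCCGC and TTTGGCGC were therefore searched for, on both strands, in RefSeq promoter windows (GRCh38.p14, 250 bases before to 50 after each start). The table held windows for 37 of the 41 members, and it had no entry for CCNE2, MCM4, MCM5 and GINS4. At least 1 such word was present in 22 of the 37 members (59.5% of genes; 46.8% of their 47 windows), against 3.99% of all 27305 genes with a window and 3.31% of all 35116 windows. A letter match describes the window only. The stretches of 30 bases below are shown as examples from 5 of the roles and include the members CDT1, MCM3, LIG1, TIPIN and DTL, which were called under the knockdown; the capitals mark the words, which overlap in opposite orientations in MCM6 and TIPIN.
E2F1: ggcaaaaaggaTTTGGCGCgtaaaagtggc
E2F2: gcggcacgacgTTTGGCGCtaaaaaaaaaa
CDT1: ccagggcgcccGCGGGAAAtttggcgggaa
MCM3: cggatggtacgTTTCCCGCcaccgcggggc
MCM6: ggtcaggTTTGGCGCGAAAtctccagctcc
MCM7: ccggtcacgtggggggcgacgTTTCGCGCc
PCNA: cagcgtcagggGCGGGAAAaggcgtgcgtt
LIG1: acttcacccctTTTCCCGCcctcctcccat
TIPIN: gcacggaTTTGGCGCCAAAcgctgcgggcc
DTL: caatcagagagcgtgacgtcagTTTGGCGC
These stretches lie, on GRCh38.p14, as follows: E2F1 at chr20:33686387-33686416 on the minus strand, E2F2 at chr1:23531257-23531286 on the minus strand, CDT1 at chr16:88803743-88803772 on the plus strand, MCM3 at chr6:52284898-52284927 on the minus strand, MCM6 at chr2:135876511-135876540 on the minus strand, MCM7 at chr7:100101398-100101427 on the minus strand, PCNA at chr20:5126663-5126692 on the minus strand, LIG1 at chr19:48170440-48170469 on the minus strand, TIPIN at chr15:66356729-66356758 on the minus strand and DTL at chr1:212035718-212035747 on the plus strand. They lie before the RefSeq start of their gene, and the DTL word ends on the base next to it. For CCAAT, bound by NF-Y, the shares were 59.6% of member windows and 34.6% of all windows. For the GC box GGGCGG, which can overlap an E2F word in GC-rich DNA, they were 74.5% and 44.95%. For TTTGAA, the letters of the CHR element of genes repressed by the DREAM complex, they were 2.13% and 15.2%. No E2F word was found in the windows of 15 members. These were ORC1, ORC6, MCM10, CDC45, PRIM1, POLD1, RFC2, RFC4, RFC5, FEN1, RRM1, RRM2, TK1, CCNE1 and TIMELESS.

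The libraries held 39109479 to 68978119 counts. SMARCA4 itself was 198 ± 19.2 CPM (counts per 1000000 counts in the library, scaled by TMM; SD, n = 5) in DMSO siNT, 268 ± 13.2 CPM (n = 6) in 4OHT siNT and 88.01 ± 22.8 CPM (n = 6) in 4OHT siSMARCA4, a log2 fold change of -1.61 (SE 0.13, adjusted p 4.91e-07) with the knockdown, and its levels in the siSMARCA4 and 4OHT siNT libraries did not overlap. HRAS reads, which the tables do not split between the inducible and the cell's own gene, went from 1987 ± 272 CPM to 3963 ± 629.9 CPM and 3458 ± 497 CPM. All 9 fibroblast markers on a fixed list were expressed, and their summed level ranged from 22908 to 27524 CPM in DMSO siNT, 13453 to 17542 CPM in 4OHT siNT and 7560 to 10890 CPM in 4OHT siSMARCA4. Sums of 3 leukocyte markers were 0.0995 to 0.347 CPM, 0.211 to 0.303 CPM and 0.0386 to 0.293 CPM in the same order, those of 3 endothelial markers 0.798 to 1.83 CPM, 3.52 to 5.54 CPM and 1.73 to 4.25 CPM, and those of 5 epithelial markers, nearly all from KRT8 and KRT18, 70.99 to 92.7 CPM, 65.3 to 81.7 CPM and 35.3 to 58.3 CPM. CDH1, CDH5, PTPRC and CD3E were at or near 0. The part of these markers in the results was not tested. The tags on the labels end in V or VM with no explanation, and VM was the tag of all 6 libraries of 4OHT siNT, against 3 of 5 DMSO siNT and 3 of 6 4OHT siSMARCA4 libraries. The number 2 or 4 on the labels is also not explained. It follows the siRNA name, in siNT as in siSMARCA4 libraries, and is called the siRNA number below.

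In senescent cells the replication genes were lost almost as a block. With 4OHT and siNT, 40 of 41 members were lower than in DMSO siNT (97.6%, against 27.4% of all genes tested) and 1, CCNE1, was higher (26.9% of all genes). The median log2 fold change of the members was -1.74, with a range from -5.35 to 0.40, beside a median of 0.0039 over all genes tested. A call is an adjusted p under 0.05 in edgeR's quasi-likelihood test with Benjamini-Hochberg adjustment over all genes tested. In 38 members every 4OHT siNT library lay below every DMSO siNT library, which was so for 20.0% of all genes. Summed over the 41 members, levels were 977 ± 101 CPM in DMSO siNT (846 to 1104) and 365 ± 9.29 CPM in 4OHT siNT (352 to 376). In bulk RNA, fewer cells in S phase and less of each transcript per cell cannot be told apart.

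Between 4OHT siSMARCA4 and 4OHT siNT, 12 of the 41 members were called (29.3%), close to the 24.0% of all genes called in either direction. Of these, 9 were higher (21.95%, against 10.3% of all genes): ORC6, CDC6, GINS1, RFC2, RRM2, TK1, CCNE1, TIPIN and DTL. Another 3 were lower (7.32%, below the 13.7% of all genes): CDT1, MCM3 and LIG1. The remaining 29 did not pass the test, and the median over the 41 was 0.056, beside -0.024 over all genes. Levels of all 6 siSMARCA4 libraries lay above those of all 6 siNT libraries for 3 members, RRM2, CCNE1 and DTL (4.54% of all genes), and below them for 1, LIG1 (7.49% of all genes). The summed level was 359 ± 19.1 CPM with the knockdown (334 to 383), a range that overlaps that of 4OHT siNT.

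Against growing cells, 39 members were still lower in 4OHT siSMARCA4 (95.1%, against 28.6% of all genes), CCNE1 was higher (26.5% of all genes), and RFC2 was not called (log2 fold change 0.03, adjusted p 0.791). The median was -1.96, beside -0.012 over all genes. The levels of the middle member, expressed as percent of its DMSO siNT mean, were 31.1% ± 1.28 (SD over 6 libraries) in 4OHT siNT and 27.5% ± 1.53 in 4OHT siSMARCA4. The mean was lower with the knockdown by this summary, with ranges that overlapped (28.98% to 32.5% against 25.2% to 29.3%), whereas the median fold change between the 4OHT groups was slightly above 0, so the direction of the set as a whole depended on the summary used. The 2 comparisons with 4OHT siNT share those libraries, so percentages of DMSO siNT are given side by side below for each gene and their relation was not tested.

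**Figure D1:**
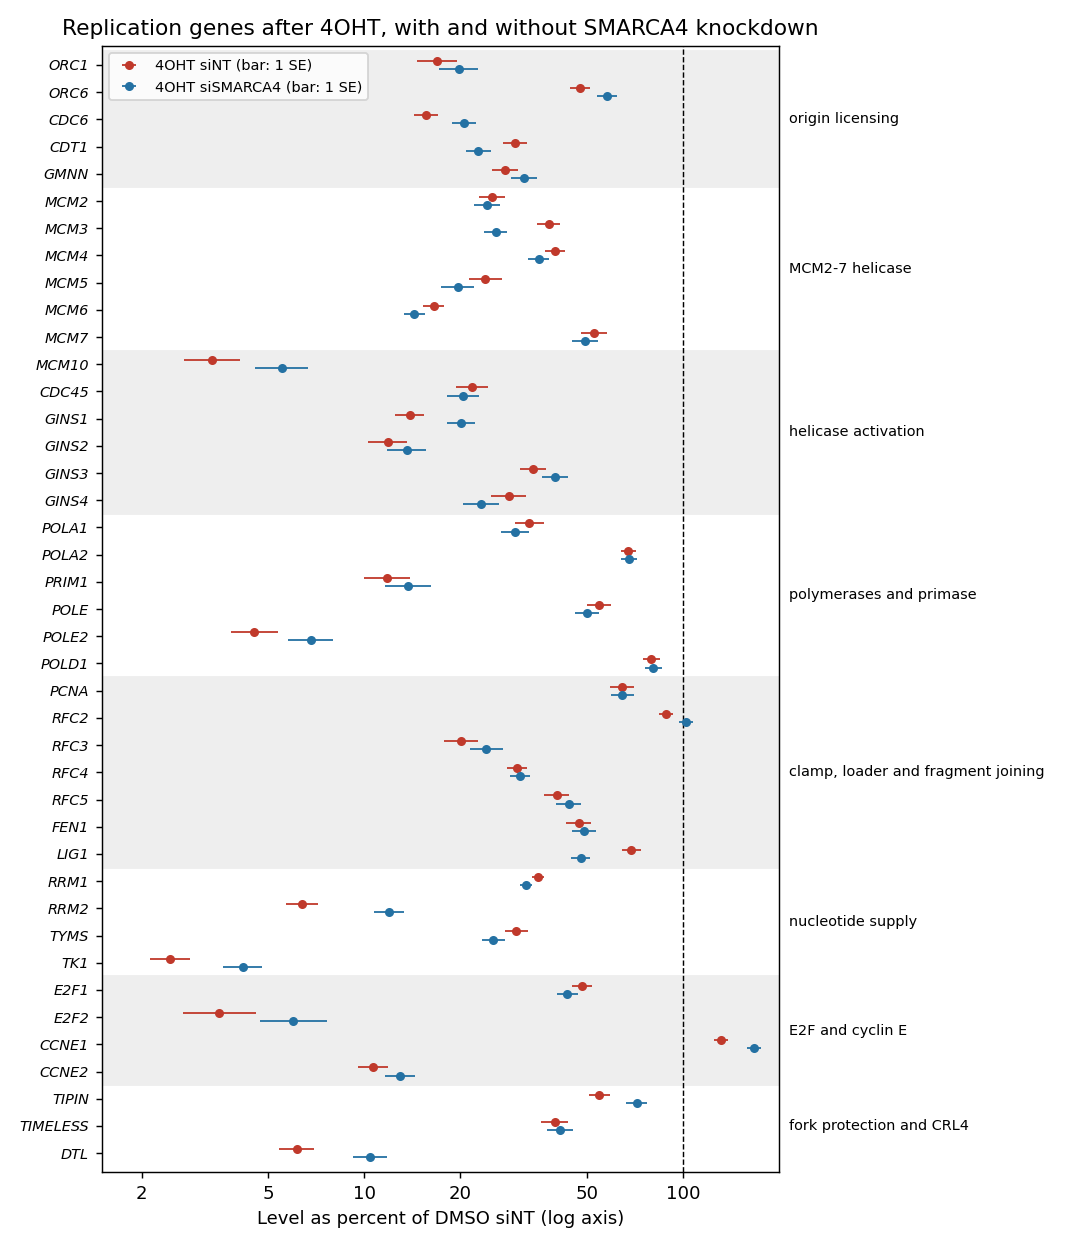
Level of each of the 41 members as percent of DMSO siNT on a log axis, in 4OHT siNT (red) and 4OHT siSMARCA4 (blue), from the fitted fold changes with 1 SE, grouped by role. All but CCNE1 lie left of the dashed line at 100% in 4OHT siNT, and the blue points of RRM2, TK1 and DTL lie to the right of the red ones but still at 11.9%, 4.15% and 10.4%.

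The 5 origin licensing genes all fell with 4OHT and then parted under the knockdown. ORC1, a large subunit of the origin recognition complex, was at 16.8% of DMSO siNT in 4OHT siNT and 19.7% in 4OHT siSMARCA4, and geminin (GMNN), the inhibitor of CDT1, at 27.6% and 31.6%; neither differed between the 4OHT groups by the test (adjusted p 0.451 and 0.304). CDC6, the loader ATPase (ENSG00000094804, GRCh38 chr17:40287879-40304657, plus strand), measured 15.9, 17.8, 13.1, 15.3 and 11.7 CPM in the DMSO siNT libraries. Its level was lowest 2.03, median 2.22, highest 2.80 CPM in 4OHT siNT and lowest 2.57, median 3.08, highest 3.49 CPM in 4OHT siSMARCA4. The DMSO libraries stood far above both, and the 4OHT groups overlapped in 1 siNT library that passed the lowest 2 of siSMARCA4. The fall was -2.68 (SE 0.13, adjusted p 2.68e-12), and the rise with the knockdown 0.40 (SE 0.12, adjusted p 0.0219), which took CDC6 from 15.6% to 20.5% of DMSO siNT. This second call was lost without the 4OHT siSMARCA4 library 2-1VM (adjusted p 0.0553) and held without any other single library.

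ORC6, the smallest subunit of the recognition complex (ENSG00000091651, GRCh38 chr16:46689643-46698394, plus strand), measured 12.98, 14.8, 11.3, 13.5 and 16.6 CPM in DMSO siNT. In 4OHT siNT it was lowest 5.52, median 6.47, highest 7.35 CPM and in 4OHT siSMARCA4 lowest 7.19, median 8.03, highest 9.12 CPM. All 12 induced libraries lay below the uninduced ones, while the 4OHT groups overlapped. The fall was -1.07 (SE 0.10, adjusted p 5.03e-08) and the rise 0.28 (SE 0.10, adjusted p 0.0499), at the edge of the threshold: ORC6 kept the second call in 6 of 17 fits that each left out 1 library, where its adjusted p reached 0.115. CDT1, which brings MCM2-7 to origins (ENSG00000167513, GRCh38 chr16:88803789-88809258, plus strand), moved the other way. It measured 15.7, 16.5, 14.5, 14.7 and 16.5 CPM in DMSO siNT, lowest 3.66, median 4.96, highest 5.18 CPM in 4OHT siNT and lowest 2.64, median 3.59, highest 4.45 CPM in 4OHT siSMARCA4, so that the 4OHT groups overlapped with the knockdown libraries toward the lower end. Its fall with 4OHT was -1.75 (SE 0.13, adjusted p 1.17e-09), and its further fall with the knockdown -0.38 (SE 0.12, adjusted p 0.0298), from 29.7% to 22.8% of DMSO siNT. This second call held in 11 of the 17 fits without a library, with an adjusted p of up to 0.0723.

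The 6 helicase genes fell together in senescence, and the fold change with the knockdown was below 0 in all 6. Of these, 1 was called, against 24.0% of all genes. The summed level of the 6 was 36.4% of the DMSO siNT mean in 4OHT siNT and 31.8% in 4OHT siSMARCA4. The falls ranged from -0.93 for MCM7 (SE 0.13) to -2.60 for MCM6 (SE 0.11), and MCM2, MCM4 and MCM5 lay between at -1.99, -1.34 and -2.06. MCM3 (ENSG00000112118, GRCh38 chr6:52264014-52284881, minus strand) was the member called under the knockdown. It measured 39.8, 43.6, 34.9, 36.9 and 31.6 CPM in DMSO siNT, lowest 11.5, median 14.1, highest 16.5 CPM in 4OHT siNT and lowest 8.07, median 9.32, highest 11.5 CPM in 4OHT siSMARCA4. The 4OHT siNT libraries were all lower than the DMSO ones, and most siSMARCA4 libraries lay lower again, with the highest of them reaching the lowest of 4OHT siNT. Its fall with 4OHT was -1.40 (SE 0.12, adjusted p 1.01e-08) and its further fall -0.55 (SE 0.12, adjusted p 0.00226), from 37.8% to 25.8% of DMSO siNT. For MCM2, MCM4, MCM5, MCM6 and MCM7 the knockdown gave -0.06, -0.17, -0.29, -0.20 and -0.09, none of which passed the test (adjusted p between 0.170 and 0.803). The sign of MCM2, MCM4 and MCM7 changed under at least 1 other processing. MCM4 was called lower in 4 of 30 alternatives, with fold changes from -0.47 to 0.09 over all of them. With VM libraries only it was -0.39 (edgeR adjusted p 0.00480).

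Helicase activation genes were among the deepest losses. MCM10, needed to start the assembled helicase (ENSG00000065328, GRCh38 chr10:13161558-13211110, plus strand), measured 8.71, 10.2, 6.59, 8.11 and 6.07 CPM in DMSO siNT, lowest 0.0958, median 0.273, highest 0.360 CPM in 4OHT siNT and lowest 0.256, median 0.373, highest 0.743 CPM in 4OHT siSMARCA4. Every induced library was far below every DMSO one, and the 4OHT groups overlapped. It fell by 4.91 (SE 0.29, adjusted p 7.71e-11) on the log2 scale to 3.33% of DMSO siNT, and with the knockdown it stood at 5.50% (log2 fold change 0.72, SE 0.30, adjusted p 0.0855). CDC45, GINS2, GINS3 and GINS4, parts of the active helicase, were at 21.7%, 11.8%, 33.9% and 28.3% in 4OHT siNT and at 20.3%, 13.6%, 39.6% and 23.2% in 4OHT siSMARCA4, and did not pass the test between the 4OHT groups. GINS1, another GINS subunit (ENSG00000101003, GRCh38 chr20:25391008-25452700, plus strand), did. It measured 8.53, 8.57, 6.80, 7.63 and 8.45 CPM in DMSO siNT, lowest 0.853, median 1.10, highest 1.41 CPM in 4OHT siNT and lowest 1.21, median 1.54, highest 2.09 CPM in 4OHT siSMARCA4, and the 4OHT groups overlapped in part. The fall was -2.85 (SE 0.15, adjusted p 1.34e-11) and the rise 0.54 (SE 0.14, adjusted p 0.0117), from 13.9% to 20.1%. This second call held without any single library but was lost in 3 alternatives. Among these were the replicate block (edgeR adjusted p 0.173) and siRNA number 2 libraries only (log2 fold change 0.41, edgeR adjusted p 0.222).

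Polymerase genes were lost unevenly, and none of the 6 was called under the knockdown, where 24.0% of all genes were called. POLE2, the second subunit of the leading strand polymerase (ENSG00000100479, GRCh38 chr14:49643555-49688422, minus strand), measured 3.77, 4.20, 2.53, 3.45 and 3.81 CPM in DMSO siNT, lowest 0.107, median 0.153, highest 0.211 CPM in 4OHT siNT and lowest 0.131, median 0.223, highest 0.352 CPM in 4OHT siSMARCA4. The DMSO libraries were far apart from all induced ones, and the 4OHT groups overlapped at levels of 6 to 18 reads. POLE2 was at 4.51% of DMSO siNT (log2 fold change -4.47, SE 0.24, adjusted p 2.25e-11) and at 6.78% with the knockdown (log2 fold change 0.59 between the 4OHT groups, adjusted p 0.110). The primase subunit PRIM1 was at 11.8% and 13.7%, and POLA1, the catalytic subunit of polymerase alpha, at 32.9% and 29.6%. Losses were smaller for POLE, the catalytic partner of POLE2 (54.4% and 49.8%), for the polymerase alpha subunit POLA2 (67.2% and 67.5%) and for POLD1, the catalytic subunit of polymerase delta (79.4% and 80.4%). POLD1 libraries of 4OHT siNT and DMSO siNT overlapped.

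Among the clamp, loader and joining genes the smallest loss and the clearest further fall were both found. The clamp PCNA was at 64.1% and 64.4% of DMSO siNT in the 2 induced groups, the flap nuclease FEN1 at 46.95% and 48.7%, and the loader subunits RFC3, RFC4 and RFC5 at 20.1%, 30.1% and 40.1% in 4OHT siNT and 24.1%, 30.7% and 43.7% with the knockdown. None of these 5 was called between the 4OHT groups, where 24.0% of all genes were called. RFC2, another small subunit of the loader (ENSG00000049541, GRCh38 chr7:74231499-74254458, minus strand), measured 19.1, 16.97, 16.3, 17.5 and 17.4 CPM in DMSO siNT, lowest 13.7, median 15.3, highest 17.1 CPM in 4OHT siNT and lowest 16.3, median 17.7, highest 19.5 CPM in 4OHT siSMARCA4. All 3 groups overlapped. Its fall was -0.18 (SE 0.07, adjusted p 0.0486) and its rise 0.21 (SE 0.07, adjusted p 0.0423), both near the threshold, and the rise kept its call in 5 of 17 fits without a library (adjusted p up to 0.103).

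LIG1, the ligase that seals lagging strand fragments (ENSG00000105486, GRCh38 chr19:48115445-48170603, minus strand), measured 18.8, 21.8, 17.8, 22.4 and 17.6 CPM in DMSO siNT, lowest 11.8, median 13.3, highest 15.7 CPM in 4OHT siNT and lowest 7.20, median 9.64, highest 10.2 CPM in 4OHT siSMARCA4. The 3 groups formed separate steps with no overlap. Its fall was -0.54 (SE 0.10, adjusted p 1.51e-04) with 4OHT and -0.53 (SE 0.10, adjusted p 9.20e-04) with the knockdown, from 68.7% to 47.7% of DMSO siNT, and it was called in each of the 30 other settings tried for the second comparison.

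Nucleotide supply held the deepest loss of the set and its largest rise. TK1, the thymidine kinase of the salvage route (ENSG00000167900, GRCh38 chr17:78174091-78187233, minus strand), measured 44.8, 47.5, 31.7, 37.3 and 38.6 CPM in DMSO siNT. In 4OHT siNT it was lowest 0.671, median 1.01, highest 1.31 CPM and in 4OHT siSMARCA4 lowest 0.966, median 1.67, highest 2.41 CPM. No induced library came near the uninduced ones, and the 4OHT groups overlapped, with 2 siSMARCA4 libraries inside the siNT range. TK1 was at 2.45% of DMSO siNT after a log2 fold change of -5.35 (SE 0.21, adjusted p 3.27e-13), and at 4.15% after a rise of 0.76 (SE 0.20, adjusted p 0.0110).

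RRM2, the S-phase small subunit of ribonucleotide reductase (ENSG00000171848, GRCh38 chr2:10120698-10211725, plus strand), measured 82.2, 90.9, 60.1, 73.7 and 61.96 CPM in DMSO siNT, lowest 3.74, median 4.74, highest 5.75 CPM in 4OHT siNT and lowest 6.19, median 8.30, highest 11.3 CPM in 4OHT siSMARCA4. The siSMARCA4 libraries were all higher than the siNT ones and all well below DMSO. Its fall was -3.97 (SE 0.16, adjusted p 6.31e-13) and its rise 0.90 (SE 0.15, adjusted p 3.64e-04), a 1.87-fold difference that took it from 6.38% to 11.9% of DMSO siNT. RRM1, the large subunit of the same enzyme, was at 34.98% and 32.2%, and thymidylate synthase (TYMS) at 29.96% and 25.4%; neither differed between the 4OHT groups by the test (log2 fold changes -0.12 and -0.24, adjusted p 0.148 and 0.140). The 4 genes therefore split, and their summed level was 20.4% of DMSO siNT in 4OHT siNT and 20.3% in 4OHT siSMARCA4.

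CCNE1, the cyclin E that drives CDK2 at the start of S phase (ENSG00000105173, GRCh38 chr19:29811991-29824312, plus strand), was the only member higher in senescent cells. It measured 9.33, 10.8, 11.2, 11.4 and 11.6 CPM in DMSO siNT, lowest 13.1, median 14.3, highest 15.6 CPM in 4OHT siNT and lowest 16.5, median 18.2, highest 19.2 CPM in 4OHT siSMARCA4. The 3 groups rose in separate steps. The first step was 0.40 (SE 0.07, adjusted p 1.47e-04) and the second 0.34 (SE 0.07, adjusted p 0.00203), to 132% and then 166% of DMSO siNT. Its paralogue CCNE2 fell by 3.23 (SE 0.16, adjusted p 4.07e-12) on the log2 scale, to 10.6%, and stood at 12.9% with the knockdown (adjusted p 0.199 between the 4OHT groups). E2F1, an activator of these genes, was at 48.2% and 43.3%. E2F2, another activator (ENSG00000007968, GRCh38 chr1:23506438-23531233, minus strand), measured 1.13, 1.21, 0.728, 0.832 and 0.671 CPM in DMSO siNT, lowest 0, median 0.0204, highest 0.0767 CPM in 4OHT siNT and lowest 0.0386, median 0.0421, highest 0.0986 CPM in 4OHT siSMARCA4. The induced libraries held only 0 to 5 E2F2 reads each, so the fall of -4.83 (SE 0.38, adjusted p 3.73e-09) is clear and a difference between the 4OHT groups was not detectable at this depth (log2 fold change 0.77, SE 0.49, adjusted p 0.323).

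Of the 3 remaining genes, DTL and TIPIN rose with the knockdown. DTL, also called CDT2, is the substrate receptor of the CRL4 ligase that degrades CDT1 during S phase (ENSG00000143476, GRCh38 chr1:212035553-212107400, plus strand). It measured 13.00, 15.6, 9.47, 15.2 and 11.1 CPM in DMSO siNT, lowest 0.635, median 0.814, highest 0.922 CPM in 4OHT siNT and lowest 1.01, median 1.25, highest 1.99 CPM in 4OHT siSMARCA4. The 4OHT groups did not overlap, and 1 siSMARCA4 library stood above the other 5. The fall was -4.03 (SE 0.18, adjusted p 1.98e-12) and the rise 0.77 (SE 0.18, adjusted p 0.00423), from 6.12% to 10.4% of DMSO siNT.

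TIPIN, a fork protection protein (ENSG00000075131, GRCh38 chr15:66336191-66386746, minus strand), measured 7.29, 7.24, 5.65, 7.24 and 8.42 CPM in DMSO siNT, lowest 3.50, median 3.80, highest 4.68 CPM in 4OHT siNT and lowest 4.61, median 5.08, highest 5.89 CPM in 4OHT siSMARCA4. The highest siNT library overlapped the lowest siSMARCA4 one, and the highest siSMARCA4 library passed the lowest DMSO one. Its fall was -0.88 (SE 0.11, adjusted p 1.59e-06) and its rise 0.39 (SE 0.11, adjusted p 0.0118), from 54.5% to 71.4% of DMSO siNT. Its partner TIMELESS was at 39.5% and 41.02% (adjusted p 0.810 between the 4OHT groups).

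**Figure D2:**
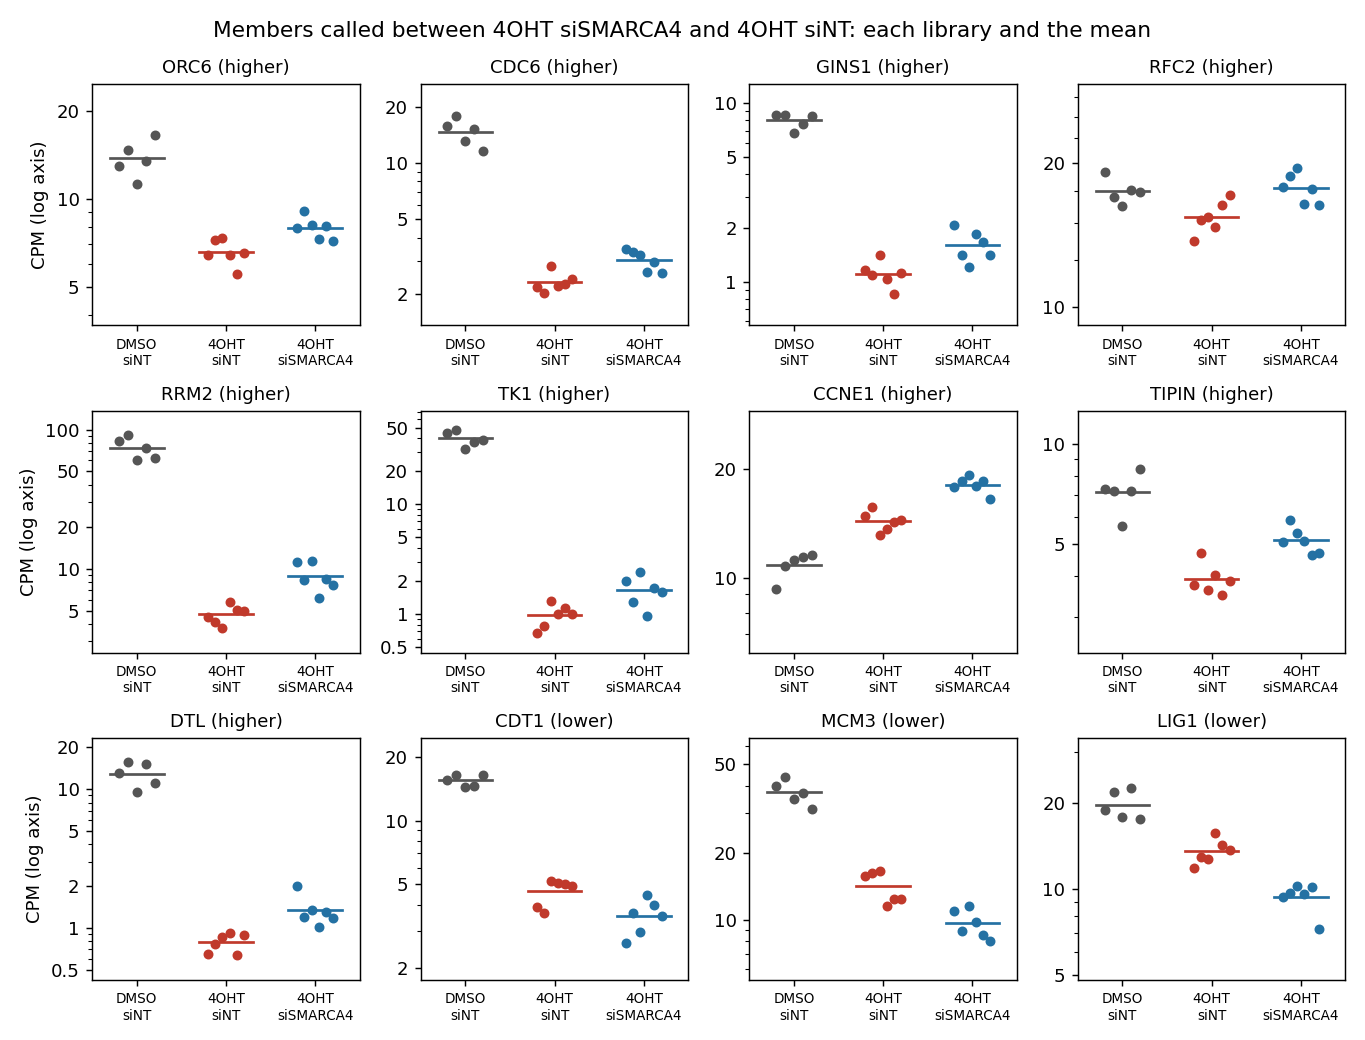
Level in CPM (log axis) of the 12 members called between 4OHT siSMARCA4 and 4OHT siNT, with a point for each library and a line at the group mean; 9 were higher with the knockdown and 3 lower. RRM2, CCNE1, DTL and LIG1 show no overlap between the 4OHT groups, and in each panel except RFC2 and CCNE1 the DMSO siNT mean is the highest of the 3.

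Summed by role, levels in 4OHT siNT were 19.7% of the DMSO siNT mean for helicase activation, 20.4% for nucleotide supply, 28.9% for origin licensing, 31.3% for fork protection and CRL4, 36.4% for MCM2-7, 56.8% for polymerases and primase, 58.3% for clamp, loader and joining and 67.1% for E2F and cyclin E. With the knockdown the same sums were 19.4%, 20.3%, 31.7%, 36.6%, 31.8%, 55.4%, 58.3% and 76.8%. The sums of E2F and cyclin E did not overlap between the 4OHT groups (19.6 to 23.4 against 23.7 to 26.8 CPM), but CCNE1 made up most of them. Without CCNE1, a sum added after its values were seen, the other 3 genes stood at 35.8% and 33.2% of DMSO siNT (6.46 to 9.10 against 6.67 to 8.37 CPM). Sums weight genes by their reads, and the other 7 roles overlapped between the 4OHT groups. The overlap was slight for MCM2-7, at 89.4 to 102 CPM in 4OHT siNT and 76.8 to 89.5 CPM in 4OHT siSMARCA4.

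**Figure D3:**
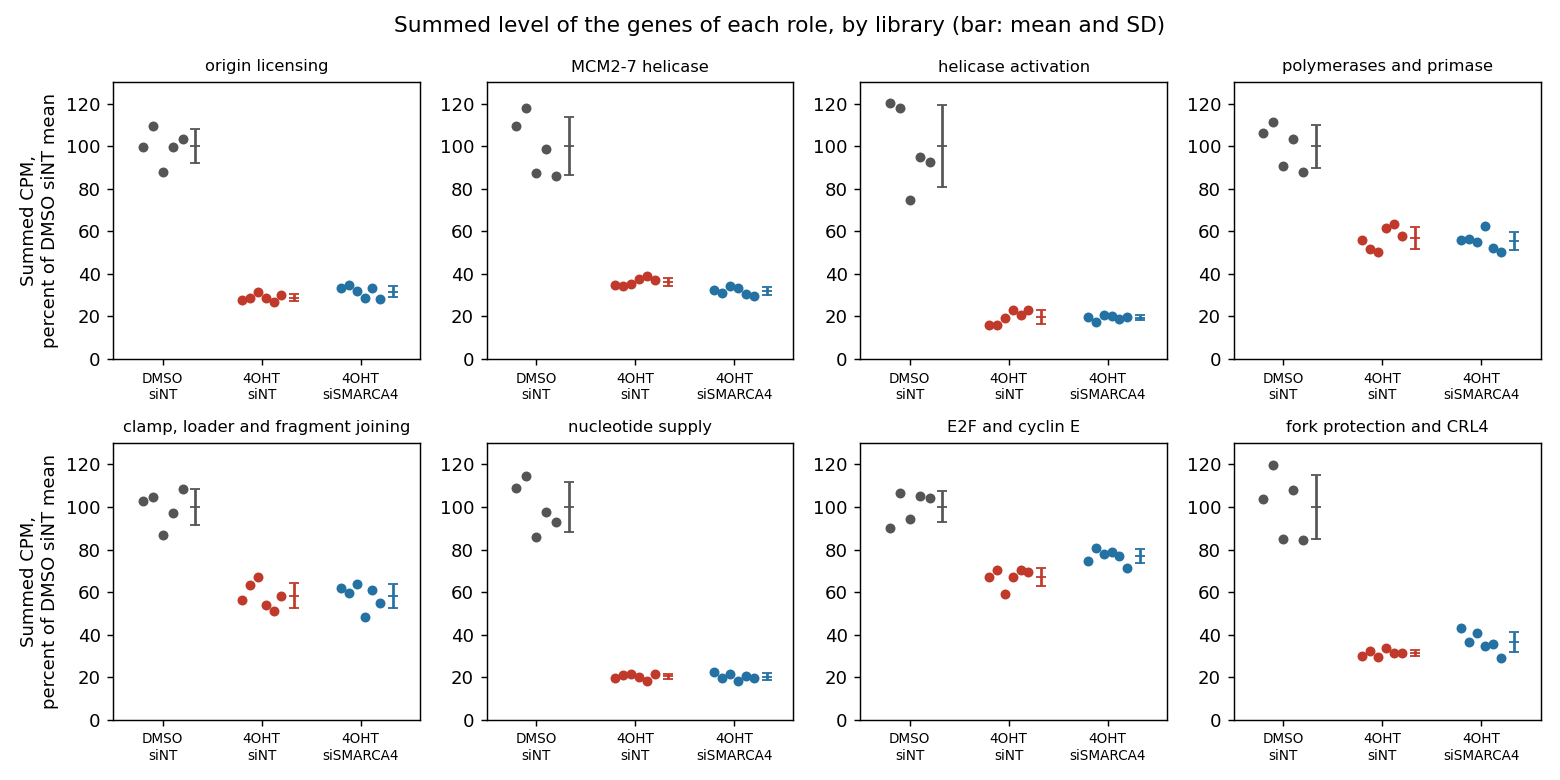
Summed CPM of the genes of each role in every library, as percent of the DMSO siNT mean, with the mean and SD of each group beside the points. All induced libraries lie below all DMSO siNT libraries in each panel, and the 4OHT siNT and 4OHT siSMARCA4 points overlap in every panel but E2F and cyclin E, where CCNE1 makes up most of the sum.

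Values under the knockdown are given separately for libraries with siRNA number 2 and number 4. In a fit of all libraries with a term for each group and number, 7 members were higher and 3 lower for number 2 (10 of 41, against 19.0% of all genes), and 2 were higher and 4 lower for number 4 (6 of 41, against 16.0%). Log2 fold changes for numbers 2 and 4 were 1.30 and 0.49 for RRM2, 1.08 and 0.43 for TK1, and 1.00 and 0.51 for DTL. They were 0.35 and 0.32 for CCNE1, -0.62 and -0.46 for MCM3 and -0.35 and -0.69 for LIG1. The 12 members called with both numbers pooled had the same sign in both, which that choice favours. MCM4, called lower for number 2 (-0.40), and MCM5 and MCM7, called lower for number 4 (-0.46 each), were not among the 12. The tag letters were not balanced over the numbers. The siSMARCA4 libraries of number 2 were 2-1VM, 2-3V and 2-3VM, and those of number 4 were 4-2V, 4-2VM and 4-3V. In that order, SMARCA4 was 68.9, 103 and 78.2 CPM for number 2, and 126, 68.4 and 82.6 CPM for number 4. By tag letters it was 82.6 to 126 CPM in the V libraries of siSMARCA4 and 68.4 to 78.2 CPM in the VM ones. The tag letters and the remaining SMARCA4 therefore cannot be told apart, and their part in the effects by number was not tested. The difference between numbers passed the test for 0 members (1.03% of all genes; 8 members at an unadjusted p under 0.05 in edgeR), and it was closest for MCM7, at 0.29 against -0.46 (difference 0.76, SE 0.18, adjusted p 0.0526). With no filter on low counts 2 members passed, MCM7 and RRM2, and without the 4OHT siSMARCA4 library 4-2VM 2 passed, MCM4 and MCM7. Over all genes these fits called 791 and 847, against 200 in the main fit.

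The same numbers also differed within the 4OHT siNT libraries, where MCM5 was the 1 member called between them (4.66% of all genes). MCM3, MCM7 and TYMS lay just outside the threshold (log2 differences 0.41, -0.42 and 0.40, edgeR adjusted p 0.0506, 0.0637 and 0.0671). In each of them the 4OHT siNT libraries of the 2 numbers did not overlap, which was also so for other members, RRM2, LIG1 and MCM4 among them. The share of all genes without such overlap was not counted. For MCM7 the number 2 against number 4 difference was -0.42 in siNT and 0.33 in siSMARCA4. MCM5 was 5.92 to 6.04 CPM in the 3 number 2 libraries and 9.39 to 11.02 CPM in the 3 number 4 libraries (log2 difference -0.73, SE 0.14, edgeR adjusted p 0.0110). Both sets were labelled siNT, and the labels do not say whether the numbers mark different non-targeting siRNAs. When only number 4 libraries entered the fit, which then took its spread from them alone, 1 member was called under the knockdown in place of 12, LIG1 (against 6.03% of all genes). The 12, whose calls had included these libraries, kept their signs there. Log2 fold changes were 0.36 for CCNE1, 0.38 for TIPIN, 0.76 for GINS1 and 0.53 for RRM2 (edgeR adjusted p 0.0771, 0.146, 0.0529 and 0.0599). With VM libraries only, which left the 3 siSMARCA4 libraries with the least SMARCA4 against 6 of 4OHT siNT, 15 members were called (against 26.9% of all genes), 11 higher and 4 lower. RRM2, TK1, DTL, CCNE1, CDC6, GINS1, RFC2, CDT1, MCM3 and LIG1 were among them, RRM2 at 1.14, while ORC6 and TIPIN were not (adjusted p 0.100 and 0.0670). With the tag letters as a covariate 12 members were called, 7 higher and 5 lower, in a fit that called 5328 genes, against 4683 in the main fit. They were not the same 12. ORC6 and RFC2 were not called (edgeR adjusted p 0.0688 and 0.0570), and MCM4 and GINS4 were called lower. With the replicate block 8 were called (19.5%, against 16.3% of all genes), 5 higher and 3 lower. RRM2, TK1, CCNE1, DTL and MCM10 were higher, and MCM3, MCM4 and LIG1 were lower. CDC6, CDT1, GINS1, ORC6, RFC2 and TIPIN were not called there. The block was the full tag, so libraries whose tag occurs in only 1 group, among them all V libraries, added nothing to that comparison. There was no V library of 4OHT siNT, so no value within V could be had.

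**Figure D4:**
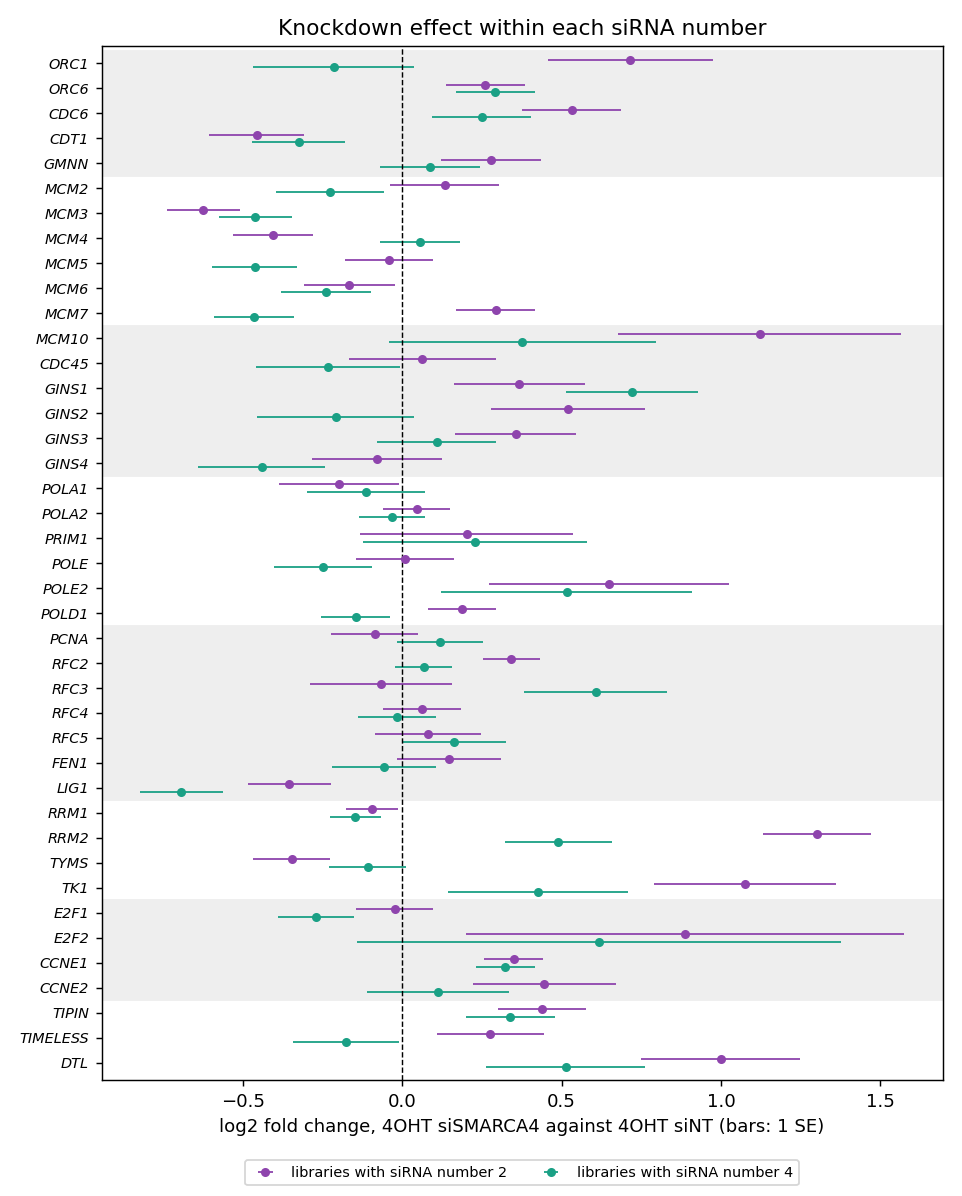
Log2 fold change of each member between 4OHT siSMARCA4 and 4OHT siNT within libraries of siRNA number 2 (purple) and number 4 (green), with 1 SE; shading separates roles. RRM2 lies at 1.30 and 0.49, MCM7 at 0.29 and -0.46, and MCM3, LIG1 and CCNE1 lie on the same side of 0 for both.

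Members with and without an E2F word in their windows both lost expression in senescence. All 22 with a word were lower with 4OHT, with a median of -1.75. Of the 15 without one, 14 were lower, with a median of -1.52. Over all genes 27.4% were lower with 4OHT. Under the knockdown 4 with a word were higher (CDC6, GINS1, TIPIN and DTL) and 3 lower (CDT1, MCM3 and LIG1), with a median of 0.0061. Without a word 5 were higher (ORC6, RFC2, RRM2, TK1 and CCNE1) and 0 lower, with a median of 0.21. Over all genes 10.3% were higher and 13.7% lower with the knockdown, and the difference between these sets was not tested.

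A further 43 replication genes that are not members came from a list fixed by function. With 4OHT 32 were lower (against 27.4% of all genes) and 4 higher (against 26.9%), with a median of -0.80. The largest falls were in CLSPN, the claspin checkpoint adaptor (-4.54), ASF1B, a histone chaperone (-4.22), and CHAF1B, of chromatin assembly factor 1 (-3.47). The largest rises were in POLD4, a small subunit of polymerase delta (0.82), RNASEH2C (0.73) and RRM2B, the p53-inducible alternative to RRM2 (0.65). Under the knockdown 7 were higher (16.3%, against 10.3% of all genes) and 6 lower (13.95%, close to the 13.7% of all genes). The higher ones were led by CLSPN (0.90), CHAF1B (0.62) and DNA2 (0.36), and the lower ones by CHTF18 (-0.61), MCM8 (-0.37) and RPA1 (-0.30), and the list had a median of -0.0065.

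Of 33 genes of the RB and E2F pathway, 16 were lower with 4OHT (48.5%, against 27.4% of all genes) and 9 higher (27.3%, close to the 26.9% of all genes). Under the knockdown 8 were lower (24.2%, against 13.7%) and 5 higher (15.2%, against 10.3%). Of the kinase inhibitors, CDKN2B, CDKN2A and CDKN1A rose with 4OHT and were lower with the knockdown than without it, while staying above DMSO siNT in their means. CDKN2B (p15) went from 21.9 ± 3.68 CPM to 352 ± 24.8 CPM and 223 ± 12.7 CPM, CDKN2A (p16 and ARF) from 48.96 ± 16.4 CPM to 115 ± 7.91 CPM and 73.1 ± 12.1 CPM, and CDKN1A (p21) from 856 ± 71.3 CPM to 2011 ± 93.6 CPM and 1501 ± 131 CPM. Their log2 fold changes under the knockdown were -0.66, -0.66 and -0.42 (adjusted p 6.44e-05, 0.00482 and 5.56e-04). RB1 was not called in either comparison (-0.09 and 0.19). E2F7, a repressor of E2F targets, rose with 4OHT (2.38), whereas E2F8, of the same kind, and MYBL2 and CCNA2 had the largest falls (-5.80, -5.29 and -4.07). CCND2, a D-type cyclin, and CDK2, the partner of cyclin E, were lower with the knockdown (-1.53 and -0.76), and CDKN1C, another kinase inhibitor, E2F5 and LIN9 were higher (0.87, 0.53 and 0.52).

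All 12 mitotic genes on a list for context were lower with 4OHT (against 27.4% of all genes), with a median of -4.19 led by MKI67 (-5.68), CDK1 (-5.44) and BUB1 (-5.18). With the knockdown 4 were higher (33.3%, against 10.3% of all genes), among them CDK1 (1.39), BUB1 (0.83) and AURKB (0.78), and 1, AURKA, was lower (-0.41; 8.33%, against 13.7%). The summed mitotic level was 352 to 539 CPM in DMSO siNT, 37.9 to 44.8 CPM in 4OHT siNT and 38.2 to 52.6 CPM in 4OHT siSMARCA4. The mitotic sums of the 2 groups with 4OHT overlapped.

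**Figure D5:**
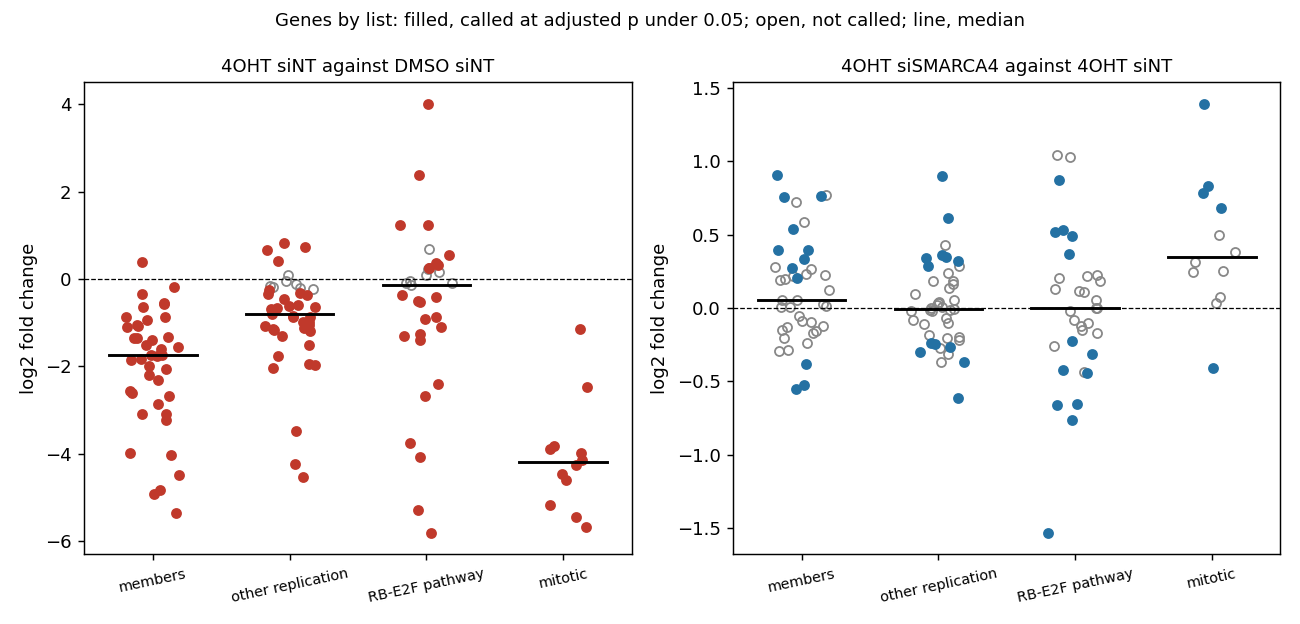
Log2 fold change of the genes of 4 lists with 4OHT (left) and with the knockdown (right); filled points were called at an adjusted p under 0.05, open ones were not, and black lines are medians. With 4OHT the members' median lies at -1.74 and that of the mitotic genes at -4.19, and with the knockdown the members spread on both sides of 0, from -0.55 to 0.90.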

How the data were processed

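RNA was selected with poly(A), made into strand-specific libraries and sequenced as read pairs in 17 libraries of 3 groups. The authors trimmed reads with Cutadapt 4.7, aligned them to GRCh38 with HISAT2 2.2.1 and counted them with TElocal, which shares a pair that maps to several places by maximum likelihood, on genes of Ensembl release 100. The deposited tables, 1 per library, hold estimated counts for genes and for single repeats, already whole and without any normalisation. Genes near-identical to a pseudogene can therefore gain or lose shared reads. Symbols and positions came from GENCODE 44.

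From these counts, genes joined with repeat subfamilies were filtered with filterByExpr (minimum count 10, minimum total 15) and scaled by TMM, and the 17 libraries were fitted together in 1 quasi-likelihood model with group terms, in edgeR 4.0.16 (R 4.3.3), with Benjamini-Hochberg adjustment over the 19473 genes tested. Fold changes are log2 with SE, and percent of DMSO siNT is computed from them. Totals of 39109479 to 68978119 counts set the precision, which for E2F2, POLE2 and MCM10 rests on a few reads per library. The script was tested on simulated data. DESeq2 1.42.0 and other alternatives are described at the end. No 2 libraries agreed closely enough to be a single library deposited again.

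Every member is named. Values by library (all 5, or lowest, median and highest of 6) are given for members called under the knockdown and for the 5 with the largest falls in senescence. Of the other lists, up to 3 called genes per direction and comparison with the largest change are named, and CDKN1A, CDKN2A, CDKN2B, RB1, HRAS and SMARCA4. Members, lists and rules were chosen with earlier results of these data known.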

Additional observations from a re-analysis of the deposited data

Results flagged for a closer look

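In 5 of the 126 sets of libraries examined (41 members and their sum, in 3 groups), 1 library stood apart from the rest of its group; chance alone gives about 1 in 20. All 5 were in 4OHT siSMARCA4. PCNA was 46.5 CPM in library 4-2V, against 62.8 to 69.0 CPM in the other 5. LIG1 was 7.20 CPM in 4-3V, against 9.38 to 10.2 CPM, and RFC5 was 5.22 CPM in the same library, against 3.35 to 3.88 CPM. DTL was 1.99 CPM in 2-1VM, against 1.01 to 1.35 CPM, and E2F2 was 0.0986 CPM there, from 5 reads, against 0.0386 to 0.0563 CPM. Without 2-1VM the rise of DTL under the knockdown was 0.62 on the log2 scale (edgeR adjusted p 0.0109), and without 4-3V the fold change of LIG1 was -0.46 (adjusted p 0.00116).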

How the results depend on the processing

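Each comparison was refitted under 30 alternatives: DESeq2, RLE factors, library totals only, genes only in the library size, no filter and a stricter one (at least 1 CPM in at least 5 libraries), the tag letters or the siRNA number as covariates or subsets, only the 2 groups compared, a replicate block, and each of the 17 libraries left out in turn. No called fold change took the opposite sign in an alternative, and no alternative called a fold change opposite to the one reported. The number of members called was 41 with 4OHT (38 to 41 over the alternatives, 40 to 41 with a library left out) and 40 for 4OHT siSMARCA4 against DMSO siNT (37 to 40, and 40 with any library left out). For the knockdown within 4OHT it was 12, and it was 8 to 12 with a library left out, lowest without the 4OHT siSMARCA4 library 2-1VM, and 15 with VM libraries only. It fell to 1 (LIG1) with siRNA number 4 libraries only, a fit on 6 4OHT and 2 DMSO libraries that called 1201 genes against 4683; the cause was not tested. The difference between siRNA numbers 2 and 4, whose alternatives were chosen after seeing the data, was called for 0 members, for 2 with no filter and for 0 to 2 with a 4OHT library left out. Over all genes these fits called 200, 791 and 18 to 847. Under the knockdown 11 members lost their call in at least 1 alternative and 6 gained one (FEN1, GINS4, GMNN, MCM10, MCM4 and POLE2). ORC6 lost it without 11 single libraries of all 3 groups (edgeR adjusted p up to 0.115) and RFC2 without 12 (up to 0.103). CDT1 lost it without 4OHT siNT 4-1VM, 4-2VM, 2-3VM or 4-3VM or 4OHT siSMARCA4 2-1VM or 2-3VM (0.0586 to 0.0723), and CDC6 without 4OHT siSMARCA4 2-1VM (0.0553). The fall of RFC2 with 4OHT was lost in 17 alternatives, 10 of them single libraries left out (up to 0.114). A total of 16 members changed sign under the knockdown and 1, RFC2, against DMSO siNT, without a call. Libraries of different groups with the same full tag (such as 2-1VM) did not deviate together in every pair (correlations of their deviations from -0.45 to 0.21 between DMSO siNT and 4OHT siNT over 3 pairs, and from -0.10 to 0.30 between the 4OHT groups over 3), so the tags are not taken as pairs; with the replicate block 39, 8 and 37 members were called in the 3 comparisons (95.1%, 19.5% and 90.2%, against 40.8%, 16.3% and 32.8% of all genes). Low counts limit E2F2, MCM10 and POLE2 in induced cells, and the stricter filter gave no value for E2F2.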
